A study of Mus musculus with 6 samples.

Results

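The genes described here encode the mitochondrial respiratory chain and ATP synthase. They were taken as every row of the deposited mouse lung table whose gene name begins with mt-, Ndufa, Ndufb, Ndufc, Ndufs, Ndufv, Sdh followed by a, b, c or d, Uqcr, Cox4 to Cox8, or Atp5. Cox7a2l and 8 names containing -ps were left out. The rule gave 114 of 21900 genes. Of these, 15 lie on the mitochondrial genome (13 messenger RNAs and 2 ribosomal RNAs) and 99 on nuclear chromosomes (83 subunits, 12 assembly factors and 4 copies named after a subunit). No mitochondrial transfer RNA row fell under the rule. The libraries were 6 bulk RNA-seq samples of whole mouse lung, all from mice given a high fat (western) diet for 10 weeks. There were 3 libraries labelled Cyp1b1 knockout (2 females and 1 male) and 3 labelled wild type (2 females and 1 male). The study asked what the loss of CYP1B1, a cytochrome P450 enzyme, does in the lung on this diet. The labels name no strain, age or knockout allele, and leave unsaid whether every library is its own animal, so the p-values reflect spread among libraries, which may be technical. Library numbers only name the samples within a label, and number 3 is the male in both.

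The respiratory chain passes electrons from NADH and succinate to oxygen through complexes I to IV, pumping protons across the inner mitochondrial membrane, and ATP synthase (complex V) uses the proton gradient to make ATP. Complexes I, III, IV and V are each built from subunits of both genomes, whereas complex II is wholly nuclear. The mitochondrial messages are cut from long transcripts read from both strands of a small circular genome, and the nuclear ones are made from separate genes by RNA polymerase II, so the levels of both sets depend on different machinery. In the mouse lung, heart muscle sleeves of the pulmonary veins are one source of transcripts for these proteins beside the lung's own cells.

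Depth lay between 20.2 and 27.6 M (1000000) assigned reads per library, and a level worth 3 reads was 0.109 to 0.148 CPM (counts per 1000000 reads assigned to genes), a limit that covers counting error only. Cyp1b1 itself had 51.2, 56.1 and 48.4 CPM in labelled knockout 1, 2 and 3, against 12.5, 19.0 and 18.5 CPM in labelled wild type 1, 2 and 3. It was thus higher, not lower, in every library labelled knockout (log2 difference 1.63 ± 0.18, SE; limma adjusted p = 0.0588), and the groups are called by their labels throughout for that reason. Whether the labels are exchanged or the allele leaves a transcript was not tested, and exchanged labels would turn the sign of every difference between the genotype labels. Summed over 7 alveolar type 2 markers, the level was 14745 to 19666 CPM in labelled knockout and 16223 to 20767 CPM in labelled wild type lungs, so the labelled tissue has its defining transcripts. Both male libraries stood apart in markers of other cell types, the labelled knockout in several. In the male labelled knockout the 10 neutrophil markers summed to 6247 CPM, against 176 to 328 CPM in the other libraries, and the 7 erythroid markers to 5913 CPM, against 852 to 2769 CPM. Its 6 B cell markers summed to 147 CPM, against 338 to 699 CPM. The male labelled wild type had the highest sum of the 6 T cell markers, 130 CPM, with the other 5 libraries between 28.1 and 44.1 CPM. The part of these cells in the results that follow was not tested. In bulk tissue, fewer cells of a type and less RNA per cell cannot be told apart.

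The 13 mitochondrial messenger RNAs together were higher on average, and the 83 nuclear subunits together slightly lower, in labelled knockout lungs, but in neither set did the labels separate. The mitochondrial messages summed to 49928, 35100 and 54605 CPM in labelled knockout 1, 2 and 3, against 37872, 43376 and 32425 CPM in labelled wild type 1, 2 and 3. The male labelled knockout was highest and the male labelled wild type lowest, and labelled knockout 2 lay below the labelled wild type females. The means were 46544 ± 10183 CPM in labelled knockout and 37891 ± 5476 CPM in labelled wild type (SD, n = 3 each), a ratio of 1.23. Between the females alone the ratio was 1.05, and between the males it was 1.68. The 7 capillary endothelium markers had sums of 3912, 3767 and 4591 CPM in labelled knockout 1, 2 and 3, against 4028, 3292 and 2777 CPM in labelled wild type 1, 2 and 3. These sums were highest in the male labelled knockout and lowest in the male labelled wild type. Their ratios were 1.22 over all libraries, 1.05 between females and 1.65 between males. Gene by gene, the male labelled knockout was highest in 2 of the 7 markers, labelled knockout 1 in 1 and labelled wild type 1 in 4. The male labelled wild type was lowest in 5. The part of these cells in the mitochondrial sum was not tested. These 13 genes took 3.51% to 5.46% of all assigned reads in labelled knockout and 3.24% to 4.34% in labelled wild type libraries.

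The nuclear subunits summed to 4725, 5086 and 4383 CPM in labelled knockout 1, 2 and 3, against 5314, 4687 and 5110 CPM in labelled wild type 1, 2 and 3. Here the male labelled knockout was lowest, labelled wild type 1 was highest, and labelled knockout 2 lay inside the labelled wild type range. The means were 4731 ± 352 CPM in labelled knockout and 5037 ± 320 CPM in labelled wild type (SD, n = 3 each), a ratio of 0.939. Ordered by mitochondrial sum, the libraries ran male knockout, knockout 1, wild type 2, wild type 1, knockout 2 and male wild type. Ordered by nuclear sum they ran wild type 1, male wild type, knockout 2, knockout 1, wild type 2 and male knockout. The 3 libraries with the higher mitochondrial sums were thus the 3 with the lower nuclear sums.

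**Figure D1:**
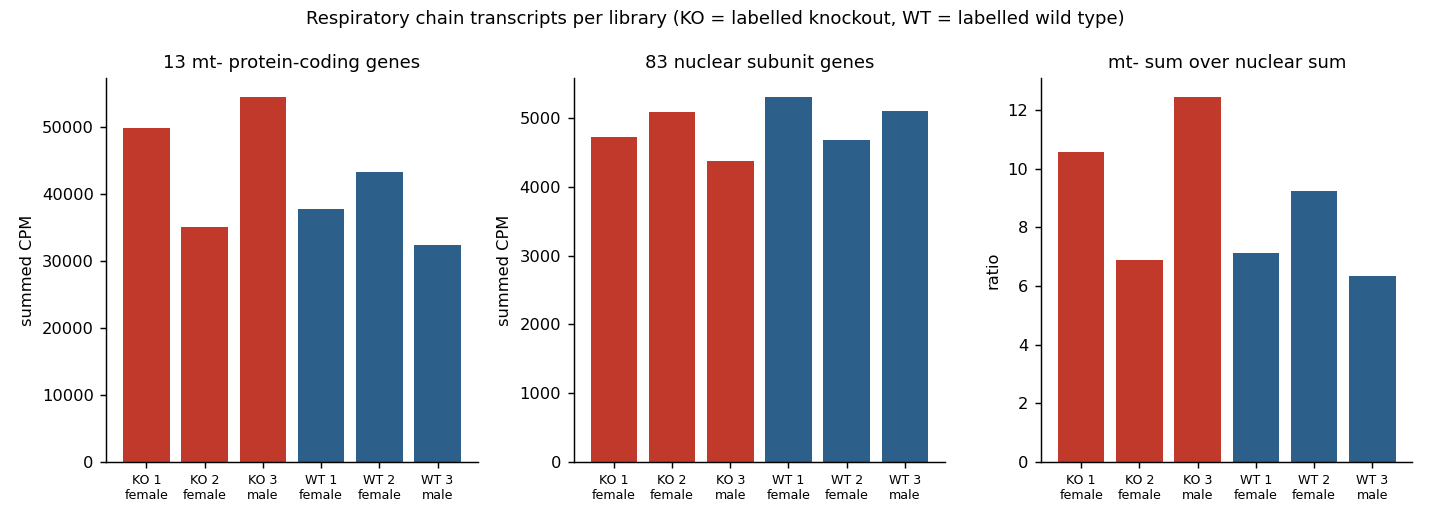
Bars give the summed CPM of the 13 mt- protein-coding genes (left), the summed CPM of the 83 nuclear subunit genes (middle) and the ratio of these sums (right) in each of the 6 libraries, labelled knockout in red and labelled wild type in blue. The ratio is 12.5 in the male labelled knockout and 6.35 in the male labelled wild type, and the female libraries of the 2 labels overlap.

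Both sums come from the same library, so their ratio is free of the scaling to CPM. It was 10.6, 6.90 and 12.5 in labelled knockout 1, 2 and 3, against 7.13, 9.25 and 6.35 in labelled wild type 1, 2 and 3. The labels overlapped, since labelled knockout 2 was lower than labelled wild type 1 and 2. The ratio of the label means was 1.32. Labelled knockout 1 exceeded labelled knockout 2 by a ratio of 1.53, which is more than the difference between the labels.

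No member passed the threshold of an adjusted p under 0.05 for the genotype label (limma, 111 members tested, smallest adjusted p = 0.775), beside 0.0115% of all 17382 genes tested. At an unadjusted p under 0.05, 0 members were higher and 9 were lower in labelled knockout, all 9 nuclear subunits. Over all genes tested these shares were 1.8% higher and 3.33% lower. Among the 13 mitochondrial messages the median log2 difference was 0.29, with 11 above 0. Among the 83 nuclear subunits it was -0.20, with 13 above 0 and 70 below. Over all genes the median was -0.06, with 40.1% above 0. Over all genes with transcripts of 500 to 1000 nt it was -0.16, with 70.3% below 0. In the females alone the median was 0.05 for the mitochondrial messages (8 of 13 above 0), -0.06 for the nuclear subunits (29 of 83 above 0) and 0.00 for all genes. Centring each library on its median gene moved the median of all genes by 0.10, which by construction leaves each set's distance from that median as it was (0.34 for the mitochondrial messages and -0.14 for the nuclear subunits). The counts above 0 then became 13 of 13 and 27 of 83. Quantile normalization, which does not move all genes alike, gave a distance of 0.21 for the mitochondrial messages and -0.15 for the nuclear subunits.

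The mitochondrial messages differed widely in level. Per kilobase of transcript, mt-Co1, the catalytic subunit of complex IV, was highest, at 10205 CPM per kb in labelled knockout and 9025 CPM per kb in labelled wild type lungs. mt-Nd4, a membrane subunit of complex I, had 4798 CPM per kb in labelled knockout and 3478 CPM per kb in labelled wild type, and mt-Cytb, the cytochrome b of complex III, had 4411 CPM per kb in labelled knockout and 3971 CPM per kb in labelled wild type. At the low end mt-Atp8, a small membrane subunit of ATP synthase, had 136 CPM per kb in labelled knockout and 135 CPM per kb in labelled wild type. mt-Nd6, the only one of the 13 encoded on the other strand, had 1352 CPM per kb in labelled knockout and 1048 CPM per kb in labelled wild type.

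**Figure D2:**
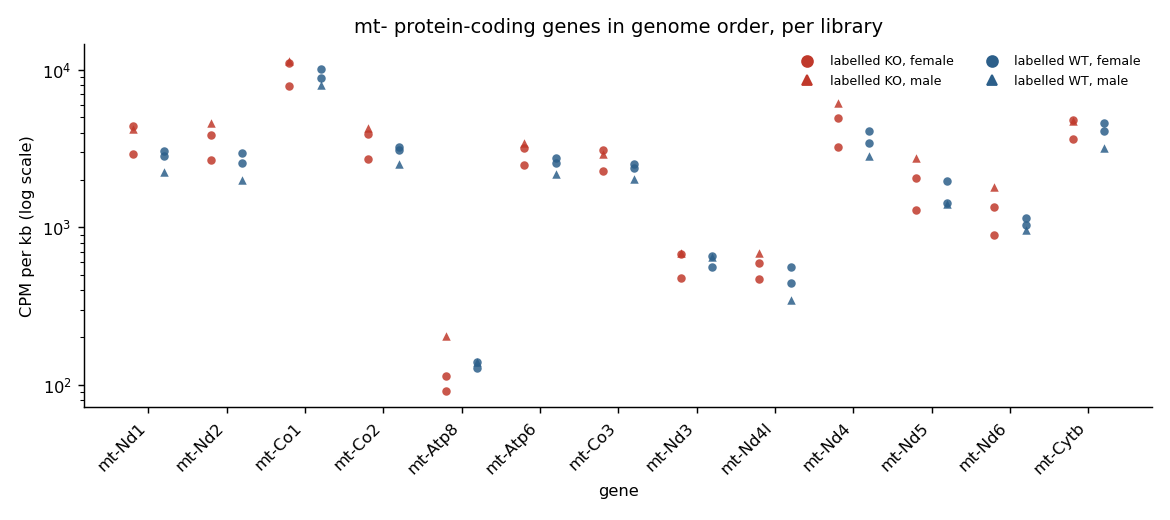
Each point is one library's level of a mt- protein-coding gene in CPM per kb of transcript (log scale), with the genes in their order along the mitochondrial genome, labelled knockout in red left of labelled wild type in blue, and males as triangles. mt-Co1 lies highest and mt-Atp8 lowest, and for every gene the points of the labels overlap.

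Some neighbouring reading frames overlap on the mitochondrial genome and are carried on a shared messenger RNA, as background. They are shown because reads from such a shared message are assigned to genes of very different levels. In the lines that follow, capitals mark the bases that belong to both reading frames, with flanking bases in lower case. Both come from the GENCODE M21 transcripts (GRCm38, plus strand): mt-Atp8 with mt-Atp6 at chrM:7915-7981, and mt-Nd4l with mt-Nd4 at chrM:10155-10185.
mt-Atp8 and mt-Atp6: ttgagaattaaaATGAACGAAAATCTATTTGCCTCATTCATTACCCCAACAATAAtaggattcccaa
mt-Nd4l and mt-Nd4: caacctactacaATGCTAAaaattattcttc
The first pair shares 43 bases and the second 7 bases. Per kilobase, mt-Atp8 was measured at 0.0490 of mt-Atp6, and mt-Nd4l at 0.125 of mt-Nd4. The ratio of mt-Atp8 to mt-Atp6 CPM was 0.0108, 0.0110 and 0.0178 in labelled knockout 1, 2 and 3, against 0.0147, 0.0151 and 0.0193 in labelled wild type 1, 2 and 3. Both males had the higher ratios within their label, and the labels overlapped. How the authors' counting treated reads in overlapping genes is not given in the sources used here, so levels of mt-Atp8 and mt-Nd4l measure assigned reads and not the abundance of the shared message.

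The mitochondrial message with the highest log2 difference was mt-Nd2, followed by mt-Nd1 and mt-Nd4, all of complex I. mt-Nd2, a membrane subunit of complex I, had 4014, 2781 and 4818 CPM in labelled knockout 1, 2 and 3, against 2647, 3091 and 2079 CPM in labelled wild type 1, 2 and 3. Labelled knockout 2 lay inside the labelled wild type range and the other labelled knockout libraries above it. The log2 difference was 0.55, with a 95% interval of -0.06 to 1.17 (limma adjusted p = 0.775). mt-Nd1, its neighbour on the genome, had 4223, 2808 and 4046 CPM in labelled knockout, against 2710, 2948 and 2164 CPM in labelled wild type, with the same overlap through labelled knockout 2 (log2 difference 0.49, 95% interval -0.05 to 1.03). mt-Nd4 had 6833, 4479 and 8521 CPM in labelled knockout, against 4757, 5686 and 3937 CPM in labelled wild type. It too overlapped, and its log2 difference was 0.43 (95% interval -0.28 to 1.14).

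The median log2 difference over the 7 complex I messages was 0.38, over the 3 of complex IV 0.26 and over the 2 of ATP synthase 0.10, and mt-Cytb alone stood at 0.16. mt-Nd4l, mt-Nd5 and mt-Nd6, further membrane subunits of complex I, had differences of 0.38, 0.29 and 0.31. mt-Co1, mt-Co2 and mt-Co3, the core of complex IV, had 0.17, 0.29 and 0.26, and mt-Atp6, the proton channel subunit of ATP synthase, had 0.27. The members below 0 were mt-Nd3 (-0.04), another complex I subunit, and mt-Atp8 (-0.07). The 13 genes largely followed the library: the male labelled knockout was highest in 10 and labelled knockout 1 in 3, and the male labelled wild type was lowest in 8 and labelled knockout 2 in 5.

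Within the mitochondrial total, the mix of messages also differed between libraries. mt-Nd2 made up 8.04%, 7.92% and 8.82% of the mitochondrial message sum in labelled knockout 1, 2 and 3, against 6.99%, 7.13% and 6.41% in labelled wild type 1, 2 and 3. mt-Nd1 made up 8.46%, 8.001% and 7.41% in labelled knockout, against 7.16%, 6.80% and 6.67% in labelled wild type. Every labelled knockout library was above every labelled wild type library for both genes, females and males alike. mt-Co1 went the other way and did not overlap either, with 34.4%, 35.1% and 32.6% in labelled knockout, against 36.4%, 36.1% and 38.2% in labelled wild type. A two-sided exact permutation test returned p = 0.1 for these 3 shares each, the smallest p that 3 against 3 libraries allow, and 0.433 after adjustment over the 13 shares. The other 10 shares overlapped between the labels. The shares add to 100% within a library, so one cannot change without another, and they were singled out after their values were seen.

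The mitochondrial ribosomal RNAs were almost absent from the table. mt-Rnr2, the large subunit RNA, had 2.82, 4.64 and 10.5 CPM in labelled knockout 1, 2 and 3, against 3.35, 3.71 and 2.99 CPM in labelled wild type. mt-Rnr1, the small subunit RNA, had 2.82, 1.67 and 4.21 CPM in labelled knockout, against 1.55, 2.23 and 2.05 CPM in labelled wild type. The male labelled knockout was highest in both, and the labels overlapped in both. Whether ribosomal RNA was depleted or polyadenylated RNA selected is not given in the sources used here.

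**Figure D3:**
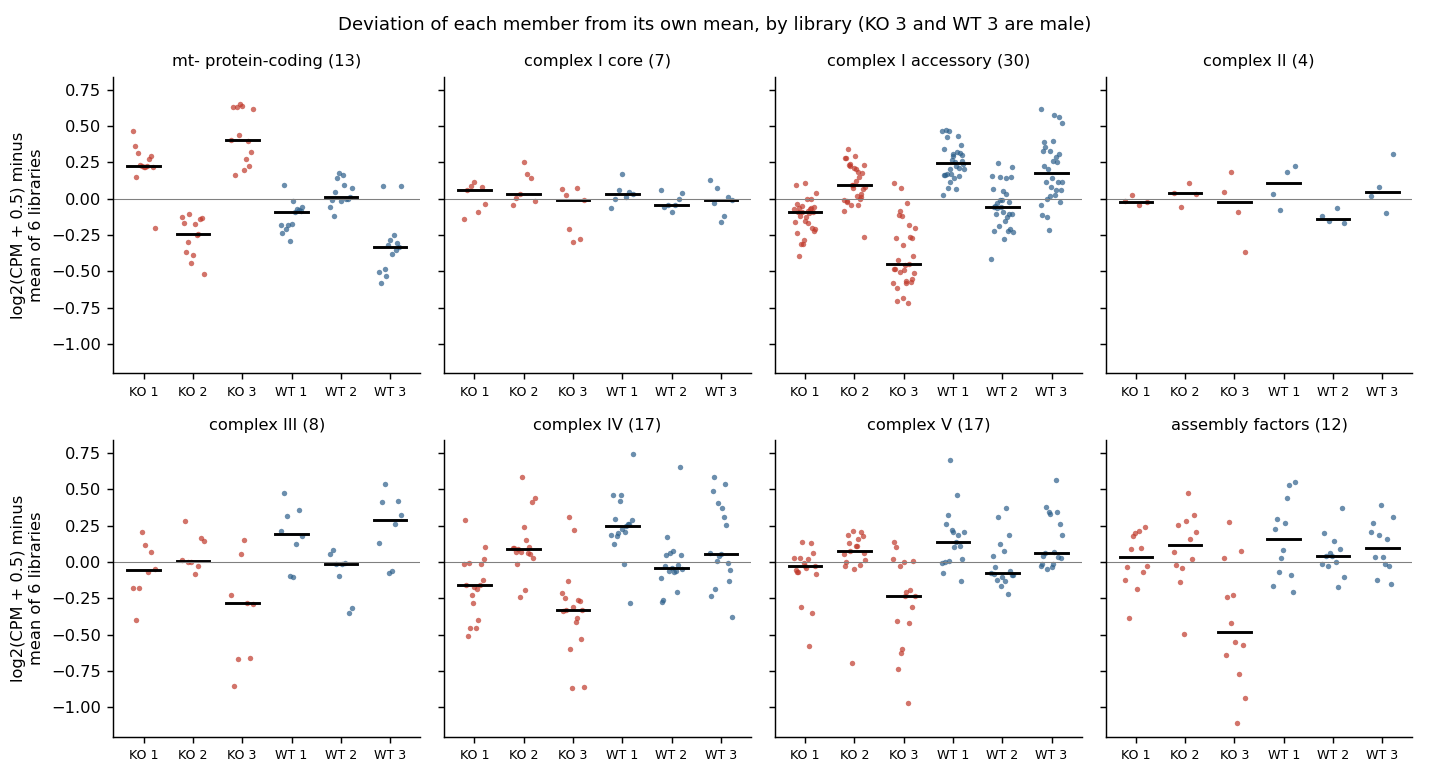
Each point is one gene's log2(CPM + 0.5) minus that gene's mean over the 6 libraries, by group of genes, with black bars at the median and labelled knockout in red left of labelled wild type in blue. By median, the mitochondrial messages lie above their mean in labelled knockout 1 and 3 and below it in labelled knockout 2 and wild type 3. Single messages depart from this. The complex I accessory subunits have their lowest median in the male labelled knockout (KO 3).

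Among the nuclear subunits the male labelled knockout was the lowest library for 51 of 83 genes, and the highest was most often labelled wild type 1 (31 genes) or the male labelled wild type (26 genes). These are 61.4%, 37.3% and 31.3% of the subunits, against 37.5%, 15.1% and 25.7% of all genes tested, and against 47.6%, 27.0% and 25.5% of all genes of 500 to 1000 nt, the length class of 44 subunits. The median log2 difference was -0.22 over the 37 subunits of complex I, 0.01 over the 4 of complex II, -0.26 over the 8 of complex III, -0.21 over the 17 counted with complex IV and -0.18 over the 17 of ATP synthase. In the females alone these medians lay between -0.08 and 0.02. Within complex I, the 7 nuclear core subunits, which carry the flavin and iron-sulfur centres, had a median of -0.04. The 30 accessory subunits, which surround that core, had -0.24 with 29 of 30 below 0. Over all genes 59.9% were below 0, and over all genes of 500 to 1000 nt 70.3%. In the females alone the core stood at 0.06 and the accessory subunits at -0.08, with 22 of 30 below 0. The core also has the longer transcripts, with a median of 1623 nt against 812 nt for the accessory subunits, and the part of length in this difference was not tested.

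For complex I, the accessory subunit Ndufa7 was the highest per kilobase, at 69.0 CPM per kb in labelled knockout and 89.6 CPM per kb in labelled wild type. It had 32.7, 48.1 and 28.6 CPM in labelled knockout 1, 2 and 3, against 56.3, 48.3 and 37.3 CPM in labelled wild type 1, 2 and 3. The labels overlapped, since labelled knockout 2 exceeded the male labelled wild type (log2 difference -0.39 ± 0.16, SE; limma unadjusted p = 0.0437, adjusted p = 0.775). Ndufs6, a zinc-binding accessory subunit added late in the assembly of the complex, had 6.09, 5.84 and 4.83 CPM in labelled knockout, against 8.46, 8.36 and 10.4 CPM in labelled wild type. Every labelled knockout library was below every labelled wild type library, with a log2 difference of -0.65 ± 0.22 (SE; limma unadjusted p = 0.0183, adjusted p = 0.775). Ndufa2, an accessory subunit of the NADH-oxidising arm, had 26.8, 28.1 and 17.4 CPM in labelled knockout, against 39.9, 27.6 and 37.6 CPM in labelled wild type. It overlapped through labelled wild type 2, and its log2 difference was -0.54 ± 0.21 (SE).

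Complex II, succinate dehydrogenase, had the median difference nearest to 0. Sdha, its flavoprotein, had 199, 207 and 207 CPM in labelled knockout 1, 2 and 3, against 206, 185 and 203 CPM in labelled wild type 1, 2 and 3. The labels overlapped, and the log2 difference was 0.05 with a 95% interval of -0.18 to 0.27. Sdhb, the iron-sulfur subunit, had a difference of 0.10 (95% interval -0.14 to 0.34), and Sdhd, a membrane anchor, one of -0.24 (95% interval -0.63 to 0.15). The 4 complex II genes also have long transcripts, with a median of 2065.5 nt. The medians for the nuclear subunits of complexes I, III, IV and V are 908, 955, 645 and 838 nt. The part of length in the complex II value was not tested.

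In complex III, Uqcrh, the hinge protein, was the highest per kilobase. It had 51.6, 55.1 and 30.9 CPM in labelled knockout 1, 2 and 3, against 63.0, 38.4 and 66.0 CPM in labelled wild type, with overlap. Uqcr11, a small supernumerary subunit, had 15.3, 24.9 and 11.1 CPM in labelled knockout, against 28.6, 21.7 and 27.3 CPM in labelled wild type. It overlapped through labelled knockout 2 (log2 difference -0.65 ± 0.26, SE; limma unadjusted p = 0.0373). Uqcrb, another small subunit, had 12.8, 14.6 and 8.98 CPM in labelled knockout, against 18.3, 14.4 and 21.3 CPM in labelled wild type, with labelled wild type 2 just under labelled knockout 2 (log2 difference -0.56 ± 0.24, SE). The large core protein Uqcrc1 lay the other way, at 145, 125 and 130 CPM in labelled knockout, against 117, 117 and 119 CPM in labelled wild type. Its labels did not overlap, and the 95% interval of its log2 difference of 0.18 ran from -0.06 to 0.41.

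In complex IV, cytochrome c oxidase, Cox4i1 was the highest nuclear subunit per kilobase. It had 209, 226 and 181 CPM in labelled knockout 1, 2 and 3, against 240, 196 and 220 CPM in labelled wild type, with overlap (log2 difference -0.09 ± 0.12, SE). Cox5b, a zinc-binding subunit, had 20.1, 28.5 and 22.8 CPM in labelled knockout, against 35.4, 28.2 and 43.4 CPM in labelled wild type. Only labelled wild type 2 reached the labelled knockout range (log2 difference -0.57 ± 0.19, SE; limma unadjusted p = 0.0174, adjusted p = 0.775). Cox6b1, which faces the intermembrane space, had 44.0, 54.1 and 33.9 CPM in labelled knockout, against 69.1, 49.6 and 68.6 CPM in labelled wild type, again with overlap through labelled wild type 2. Its log2 difference was -0.51 ± 0.20 (SE).

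In ATP synthase, the catalytic subunit Atp5b had 511, 521 and 584 CPM in labelled knockout 1, 2 and 3, against 505, 547 and 528 CPM in labelled wild type. The labels overlapped and the log2 difference was 0.03 (95% interval -0.22 to 0.29). Atp5k, the e subunit of the membrane part, had the smallest unadjusted p of all members. It had 3.63, 6.38 and 2.65 CPM in labelled knockout, against 7.997, 7.47 and 8.62 CPM in labelled wild type, with no overlap (log2 difference -0.93 ± 0.30, SE; limma unadjusted p = 0.0152, adjusted p = 0.775). Atp5g2, one of the genes for the c subunit of the rotating ring, had 1.04, 0.365 and 0.407 CPM in labelled knockout, against 1.78, 1.03 and 1.28 CPM in labelled wild type. Labelled knockout 1 lay just above labelled wild type 2 (log2 difference -0.78 ± 0.38, SE; limma unadjusted p = 0.0704). Short genes such as these have many near-identical pseudogene copies, and how reads with several placements were counted is not given in the sources used here, so their levels are uncertain.

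Across all members tested, 3 had every labelled knockout library above every labelled wild type library, beside 3.63% of all genes, and 6 had every one below, beside 5.89%. Those above included Uqcrc1 and Atp5a1, the alpha subunit of ATP synthase, with log2 differences of 0.18 and 0.07. Those below were Ndufaf2, a complex I assembly factor, Ndufb5, Ndufs6, Uqcr10, Uqcrfs1 (the Rieske iron-sulfur protein of complex III) and Atp5k, with differences of -0.46, -0.16, -0.65, -0.26, -0.25 and -0.93. Atp5a1 had 526, 537 and 523 CPM in labelled knockout, against 515, 491 and 507 CPM in labelled wild type, so the separation there was small beside the level.

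The 12 assembly factors, proteins that build complexes I and II without staying in them, had a median log2 difference of -0.27, with 10 below 0, and one of -0.04 in the females alone. None had an unadjusted p under 0.05 for the genotype label. Ndufaf2 had 3.41, 3.46 and 2.07 CPM in labelled knockout, against 4.19, 4.10 and 4.33 CPM in labelled wild type. Of the 4 copies, only Ndufb4c reached a mean of 0.5 CPM and was tested, at 22.1 ± 1.2 CPM in labelled knockout and 23.9 ± 5.0 CPM in labelled wild type (SD, n = 3 each).

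The male and female libraries were compared in the same model. No member passed the adjusted threshold for sex (smallest adjusted p = 0.123), beside 0.834% of all genes. At an unadjusted p under 0.05, 1 member was higher in males, beside 6.28% of all genes, and 7 were lower in males, beside 9%. mt-Atp8 was the higher one, at 41.4 CPM in the male and 23.3 and 18.6 CPM in the female labelled knockout libraries, and 28.6 CPM in the male and 25.9 and 28.3 CPM in the female labelled wild type libraries. Without the male labelled wild type library, the male labelled knockout is the only male. The log2 differences of mt-Atp8, Ndufaf8 and Ndufb10, male minus female, were then 0.97, -1.45 and -0.85. With all libraries they were 0.53, -0.84 and -0.45. The smallest p among the lower ones belonged to Ndufa4l2 (log2 difference -0.93, male minus female), which is described with the isoforms.

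The genotype difference in males minus that in females asks whether the labels differ alike in both sexes, with 1 male per label. Each male library is then fitted exactly, so the spread behind these p-values comes from the 4 females and assumes that males vary alike. No member passed the adjusted threshold (limma interaction term, smallest adjusted p = 0.0890), beside 2.54% of all genes. At an unadjusted p under 0.05, 8 members had a higher difference in males, beside 5.59% of all genes, and 18 a lower one, beside 12.3%. The 8 were 6 mitochondrial messages (mt-Nd2, mt-Nd4, mt-Nd4l, mt-Nd5, mt-Nd6 and mt-Atp8), mt-Rnr2 and Cox6a2. The 18 were 17 nuclear subunits and the assembly factor Ndufaf8. The smallest p belonged to Atp5e, the epsilon subunit of ATP synthase, with 53.5, 57.3 and 31.2 CPM in labelled knockout 1, 2 and 3, against 65.7, 47.9 and 68.2 CPM in labelled wild type 1, 2 and 3. Its male labelled knockout was the lowest library and its male labelled wild type the highest (interaction -1.09 ± 0.28, SE). Without labelled wild type 1, the adjusted threshold was passed by Atp5e, Atp5g3, Atp5l and Uqcrh, and without labelled knockout 1 by mt-Nd6. Between the males, all 13 mitochondrial messages had the higher level in labelled knockout (median log2 difference 0.75) and 66 of 83 nuclear subunits the lower one (median -0.40). Over all genes tested 61.6% were lower in that male comparison, with a median of -0.15. Over those with transcripts of 500 to 1000 nt, 70.1% were lower, with a median of -0.33. Each of these compares a single library with a single library, and the male labelled knockout is the one with the high neutrophil and erythroid sums.

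Transcript length was a feature that the nuclear subunits shared and the rule did not use: the median was 838 nt, against 2762.5 nt over all genes tested. In the male labelled knockout, relative to the mean of the 4 females, the 7 subunits of up to 500 nt had a median log2 difference of -0.69 and the 44 of 500 to 1000 nt one of -0.46. The 23 subunits of 1000 to 2000 nt stood at -0.24 and the 9 longer ones at -0.05. Over all genes tested the same length classes stood at -0.33, -0.30, -0.25 and -0.08. Across the 83 subunits, length and this difference had a Spearman correlation of 0.53, against 0.22 across all 17352 genes with a length; the subunits share libraries and length classes and are not independent. Between the labelled knockout and labelled wild type females the correlation was 0.19 for the subunits and 0.10 for all genes. In the male labelled wild type, relative to the mean of the same 4 females, it had the opposite sign, at -0.24 for the subunits and -0.07 for all genes. There the subunit medians by length class, shortest first, were 0.30, 0.08, 0.04 and -0.01, against 0.12, 0.06, 0.04 and 0.00 over all genes. Of the 13 mitochondrial messages, 8 are shorter than 1000 nt. In the male labelled knockout, relative to the mean of the same 4 females, all 13 were higher, with a median log2 difference of 0.41. The part of length in these values was not tested.

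**Figure D4:**
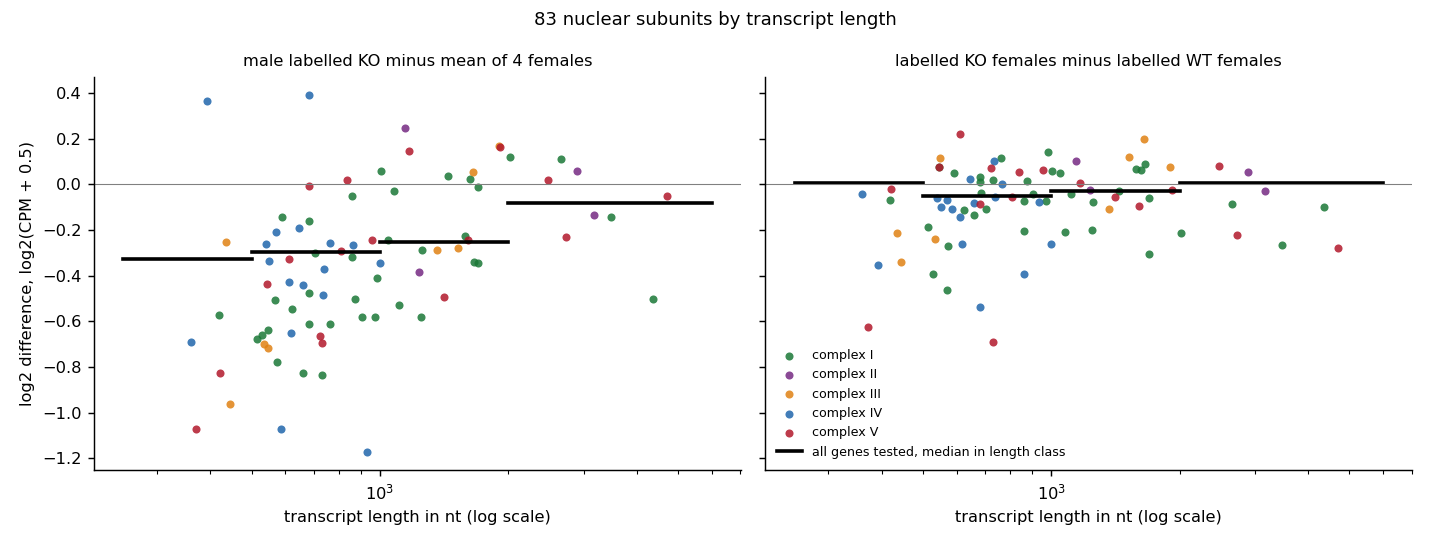
Each point is one of the 83 nuclear subunits, placed by transcript length in nt (log scale) and by log2 difference of log2(CPM + 0.5), coloured by complex, with black lines at the median of all genes tested in each length class. In the male labelled knockout minus the mean of the 4 females (left) the short subunits lie lowest, at a median of -0.69 up to 500 nt, and between the female libraries of the labels (right) the points lie closer to 0.

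Several complex IV subunits exist as a common form and a form restricted to certain tissues. Cox4i2, a form enriched in lung and linked to oxygen sensing, had 55.7, 48.8 and 35.8 CPM in labelled knockout 1, 2 and 3, against 62.8, 37.5 and 38.5 CPM in labelled wild type. Its ratio to Cox4i1 was 0.267, 0.216 and 0.197 in labelled knockout, against 0.262, 0.192 and 0.175 in labelled wild type. Within both labels the males had the lowest ratio, and the labels overlapped (Cox4i2 log2 difference 0.03, 95% interval -0.41 to 0.47). Ndufa4l2, a hypoxia-induced relative of the complex IV subunit Ndufa4, had 28.9, 36.5 and 14.5 CPM in labelled knockout, against 45.3, 26.0 and 20.5 CPM in labelled wild type. Both males lay below all 4 females. Ndufa4 itself had 77.0, 77.7 and 60.3 CPM in labelled knockout, against 93.1, 78.6 and 73.2 CPM in labelled wild type, and the males were the lowest there too. Cox4i2 and Ndufa4l2 are pericyte markers. The other 8 markers on the pericyte list summed to 835, 793 and 603 CPM in labelled knockout, against 830, 704 and 611 CPM in labelled wild type, lowest in the males. For Cox4i2 itself, labelled wild type 2 lay just below the male labelled wild type. The part of pericytes in the lower male Ndufa4l2 values and Cox4i2 ratios was not tested.

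Cox6a2, Cox7a1 and Cox8b are the forms of heart and skeletal muscle. Cox6a2 had 15.4, 18.0 and 26.6 CPM in labelled knockout 1, 2 and 3, against 24.6, 24.1 and 21.4 CPM in labelled wild type 1, 2 and 3. Cox7a1 had 2.55, 3.15 and 4.37 CPM in labelled knockout, against 3.64, 3.91 and 4.91 CPM in labelled wild type. In both, the male labelled knockout was the highest of its label. Their common partners were lowest of that label in it: Cox6a1 had 142, 152 and 130 CPM in labelled knockout, against 162, 147 and 126 CPM in labelled wild type, and Cox7a2 had 23.0, 29.3 and 19.6 CPM in labelled knockout, against 30.4, 25.0 and 32.7 CPM in labelled wild type. Cox8b was low, at 2.02, 3.15 and 1.40 CPM in labelled knockout, against 1.76, 3.81 and 2.01 CPM in labelled wild type. Its common partner Cox8a had 89.5, 93.8 and 75.2 CPM in labelled knockout, against 108, 89.1 and 89.9 CPM in labelled wild type. The labels overlapped for all of these. The 10 cardiac muscle markers summed to 1260, 1519 and 2377 CPM in labelled knockout, against 1438, 1866 and 1748 CPM in labelled wild type. Over all libraries this sum and Cox6a2 were highest in the male labelled knockout, whereas Cox7a1 was highest in the male labelled wild type. Myh6, the leading gene of the cardiac list, had 588, 685 and 1354 CPM in labelled knockout, against 672, 910 and 879 CPM in labelled wild type. Of the 10 cardiac markers, the male labelled knockout was highest in 7, labelled wild type 2 in 1 and the male labelled wild type in 2. The 7 skeletal muscle markers found in the table summed to 21.6 to 43.5 CPM over the libraries, and Ucp1, which defines brown fat cells, was at 0.77 CPM or less. The part of heart muscle in the Cox6a2 and Cox7a1 values was not tested.

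Cox6b2, the form of the male germ line, had 3.18, 6.20 and 1.95 CPM in labelled knockout, against 5.65, 4.15 and 4.10 CPM in labelled wild type, beside Cox6b1 at 33.9 CPM or more. It was present in female libraries, and the labels overlapped. Cox7b, a common subunit whose restricted relative was not in the table, had 23.2, 32.2 and 23.5 CPM in labelled knockout, against 36.8, 29.5 and 44.9 CPM in labelled wild type. Only labelled wild type 2 lay in the labelled knockout range (log2 difference -0.48 ± 0.20, SE; limma unadjusted p = 0.0402, adjusted p = 0.775).

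**Figure D5:**
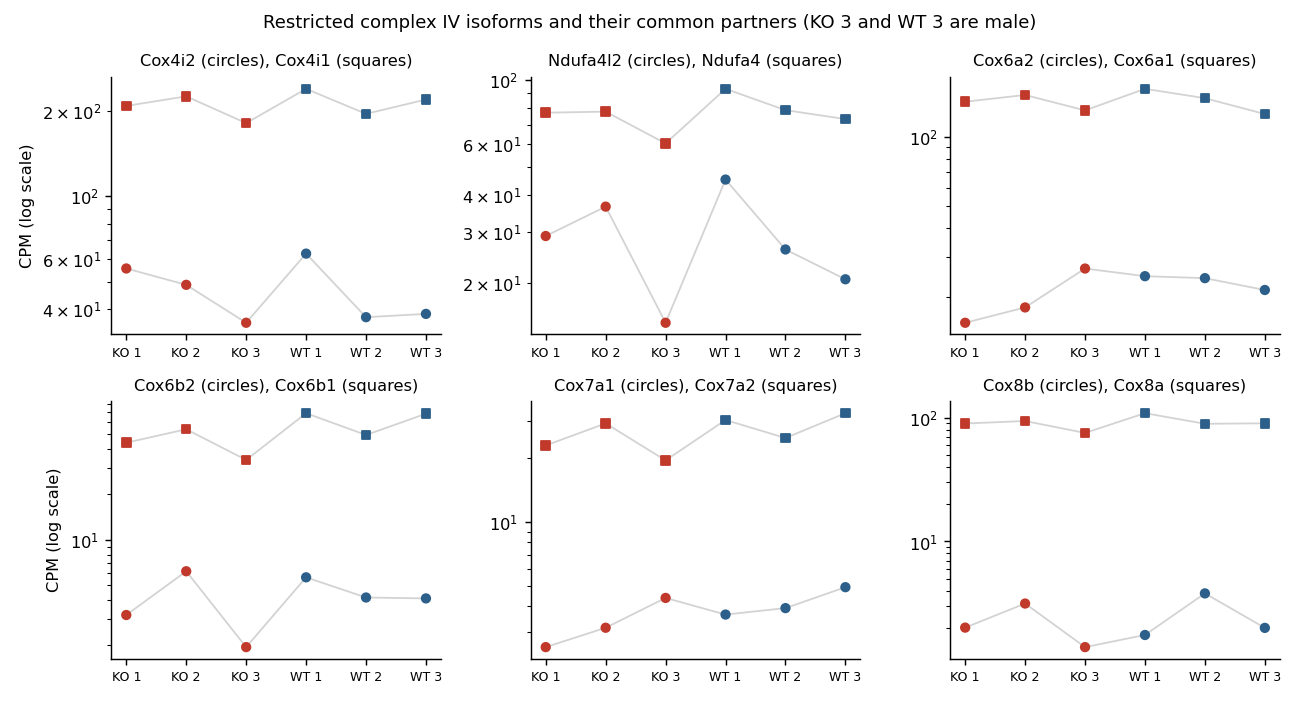
Points give CPM per library (log scale) of a restricted form (circles) and its common partner (squares), labelled knockout in red left of labelled wild type in blue, with grey lines joining libraries for legibility. Ndufa4l2 is lowest in the males. Cox4i2 is lowest within labelled knockout in the male, whereas a labelled wild type female lies just below the male of that label. Cox6a2 and Cox7a1 are highest within labelled knockout in the male.

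Promoters of the nuclear subunits are known for sites of the factors NRF1, GABPA (an ETS factor) and YY1, which couple nuclear genes to mitochondrial supply. The RefSeq table (GRCm38.p6) held a window of 250 bases before to 50 after the start for 68 of the 83 subunits. The letters GCGCANGC, the core of the NRF1 site, were found on either strand in 33.8% of these and in 11.2% of all 27025 genes with a window. The ETS core CCGGAAG was found in 25.0% of the subunits and 9.93% of all genes, and the YY1 core AAGATGG in 16.2% and 7.28%. The median log2 difference, labelled knockout minus labelled wild type, was -0.14 for the 23 subunits with the NRF1 letters and -0.23 for the 45 without. It was -0.22 with and -0.22 without the ETS letters, and -0.20 with and -0.22 without the YY1 letters. A match is only a match of letters. The shares over all genes include genes not tested here, and a match in any window of a gene counted. Base composition was not matched between the subunits and all genes. The windows of the 3 subunits of smallest genotype p are shown, with matches in capitals: Atp5k at chr5:108434350-108434649 (minus strand), Cox5b at chr1:36691237-36691536 (plus strand) and Ndufs6 at chr13:73328433-73328732 (minus strand).
Atp5k: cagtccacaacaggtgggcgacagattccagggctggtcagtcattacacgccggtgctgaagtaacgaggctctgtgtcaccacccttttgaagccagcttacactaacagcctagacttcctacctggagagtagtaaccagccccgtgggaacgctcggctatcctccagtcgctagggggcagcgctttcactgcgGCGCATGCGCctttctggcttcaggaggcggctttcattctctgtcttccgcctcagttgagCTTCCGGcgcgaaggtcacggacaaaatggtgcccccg
Cox5b: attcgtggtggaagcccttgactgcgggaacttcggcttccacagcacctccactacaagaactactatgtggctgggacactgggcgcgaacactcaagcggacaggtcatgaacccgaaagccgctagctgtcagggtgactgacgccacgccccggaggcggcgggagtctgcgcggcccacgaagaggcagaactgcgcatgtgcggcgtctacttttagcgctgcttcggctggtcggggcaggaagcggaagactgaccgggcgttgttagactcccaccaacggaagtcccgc
Ndufs6: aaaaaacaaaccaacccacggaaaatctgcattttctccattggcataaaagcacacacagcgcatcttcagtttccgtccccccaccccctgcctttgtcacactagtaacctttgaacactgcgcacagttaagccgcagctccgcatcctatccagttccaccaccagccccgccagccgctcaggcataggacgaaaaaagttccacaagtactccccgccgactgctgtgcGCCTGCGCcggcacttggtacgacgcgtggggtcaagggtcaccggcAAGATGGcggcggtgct
In Atp5k a palindromic match to the NRF1 letters, read on both strands, begins at base -50 from the start and an ETS match lies after the start. Ndufs6 holds an NRF1 match at base -14 and a YY1 match at base 34, and the Cox5b window holds none of these letters.

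Genes that serve the respiratory chain but do not belong to it were listed beside the members. Of 78 mitochondrial ribosome genes, which translate the 13 messages, 14 had a log2 difference above 0 and 64 below, with a median of -0.18; 0 passed the adjusted threshold and 6 were lower at an unadjusted p under 0.05, beside 3.33% of all genes. In the females alone their median was -0.07. The 23 genes of mitochondrial DNA transcription, replication and RNA stability had a median of -0.14, and of 0.00 in the females alone, with 1 lower at that p. Tfam, which packages and transcribes mitochondrial DNA, had 29.3, 24.2 and 20.6 CPM in labelled knockout, against 29.3, 23.2 and 22.4 CPM in labelled wild type, with overlap. Polrmt, the mitochondrial RNA polymerase, averaged 21.7 ± 3.7 CPM in labelled knockout and 21.3 ± 2.1 CPM in labelled wild type (SD, n = 3 each). The 14 regulators of biogenesis had a median of -0.07, and of -0.03 in the females alone, with Esrra, a nuclear receptor that drives oxidative genes, at 26.3, 33.3 and 31.1 CPM in labelled knockout, against 36.3, 35.0 and 48.6 CPM in labelled wild type. Its labels did not overlap (log2 difference -0.39 ± 0.15, SE; limma unadjusted p = 0.0292, adjusted p = 0.775).

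The 13 citric acid cycle genes had a median of 0.01, and of -0.01 in the females alone. Fh1, fumarase, had 56.9, 56.1 and 56.2 CPM in labelled knockout, against 47.1, 47.7 and 46.1 CPM in labelled wild type, with no overlap (log2 difference 0.26 ± 0.10, SE; limma unadjusted p = 0.0344, adjusted p = 0.775), and Cs, citrate synthase, averaged 171 ± 3 CPM in labelled knockout and 167 ± 5 CPM in labelled wild type (SD, n = 3 each). The 35 other assembly factors had a median of -0.13, and of -0.02 in the females alone, with 1 lower at an unadjusted p under 0.05. The 9 carriers and cytochrome c genes had a median of -0.12, and of -0.05 in the females alone. The smallest unadjusted p in all these lists belonged to Cox7a2l, which helps complexes III and IV join into supercomplexes. It had 95.6, 89.2 and 105 CPM in labelled knockout 1, 2 and 3, against 130, 118 and 139 CPM in labelled wild type 1, 2 and 3. Every labelled knockout library lay below every labelled wild type library (log2 difference -0.42 ± 0.10, SE; limma unadjusted p = 0.00284, adjusted p = 0.775). Cox7a2l lies at chr17:83501918-83517330 (mm10, minus strand), 3.79 Mb from Cyp1b1 on the same chromosome. Among the members, Ndufaf7, a complex I assembly factor, lies closest to Cyp1b1, at 0.753 Mb, and had 15.0, 20.9 and 11.5 CPM in labelled knockout, against 20.7, 18.9 and 17.5 CPM in labelled wild type, with overlap (log2 difference -0.30 ± 0.19, SE). Whether the neighbourhood of the targeted gene bears on either value was not tested.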

How the data were processed

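RNA of mouse lung was sequenced in 6 libraries. Per the labels' protocols, RNA was extracted with an RNEasy kit and libraries were made by standard Illumina methods. Per the submitters' processing notes, TopHat2 and Partek were used with the build mm10. The sources used here do not give their versions, the annotation, the strand setting, the RNA selection or the handling of reads with several placements. The authors deposited CPM per gene with 0.0001 added to each value, which was subtracted. Depth was read from the step between low values. Of the values worth up to 100 reads, 82.2% to 83.4% came out whole within 0.05. That is too few to recover reads, so limma took the place of the count model planned for a count table.

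Groups came from the genotype and sex labels. limma 3.58.1 (R 4.3.3, variance trend) was run on log2(CPM + 0.5) over 17382 genes with a mean of at least 0.5 CPM, with genotype label and sex as terms; the interaction came from a separate fit. Tests were two-sided, with Benjamini-Hochberg adjustment across the genes tested and a threshold of 0.05. Differences are labelled knockout minus labelled wild type on that scale, which understates changes of low genes. The script was tested on simulated data. Lengths and positions come from GENCODE M21 (21846 identifiers matched), with the principal transcript of each gene. Tables were made with pandas 2.3.3 and numpy 2.4.6, and figures with matplotlib 3.10.9, under Python 3.11.15.

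The members, gene lists and marker lists were chosen with earlier results of these data known, and the motif letters with promoter sequences in view. Genes named are Cyp1b1, every mitochondrial gene, the highest gene per kb and the 2 of smallest genotype p in each nuclear complex, and fixed isoform pairs. Others named (those whose labels did not overlap, the smallest p in a test or list, and regulators) were chosen after their values were seen. Alternatives were other pseudocounts, filters, scalings and models, and leaving out each library. The male germ cell list had 0 of 4 genes in the table. One member whose labels did not overlap is not reported here.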

Additional observations from a re-analysis of the deposited data

How the results depend on the processing

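No member passed the adjusted threshold for the genotype label under any alternative run. Over all genes, the count for genotype was 2, and it was 6 with no filter on low values, 6 with quantile normalization, 6 with median centring, 4 in the 4 females alone and 1 to 4 with a library left out. The count for sex was 145 and ran from 21 to 877 with a library left out (712 without labelled knockout 3, 877 without labelled wild type 3). The interaction count was 441, 0 with no filter, and 255 to 696 with a female library left out; leaving out a male leaves no interaction to fit. Members past the threshold for the interaction were 0 in all 6 libraries. Quantile normalization brought mt-Nd4 past it (log2 value 1.29, against 1.02 without it), and the share of all genes past it there is not given. Fits with a female library left out leave 1 female in that label, so their values for members are given above as effect sizes only. No member passed the threshold for sex with a female library left out. Leaving out a male leaves 1 male, so effect sizes alone are given above for that setting. The cause of these moves was not tested, beyond the fewer samples or other genes that each setting leaves.

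On the log2 scale the summed mitochondrial difference was 0.30, 0.07 in the females alone, and 0.17 to 0.46 with a library left out. The summed nuclear difference was -0.09, and -0.20 as the median over genes, which weighs low genes as much as high ones. It ran from -0.15 to -0.04 with a library left out. The mitochondrial to nuclear ratio was 0.40, 0.09 in the females alone, and 0.21 to 0.60 with a library left out. The count of nuclear subunits above 0 was 13 of 83, and 29 in the females alone, 27 with median centring and 10 to 29 with a library left out; these medians and counts were added to the alternatives after seeing the data. Over the 42 named genes, 33 values changed sign while not called, 3 passed the threshold only under an alternative (all Cyp1b1) and 552 kept both. These alternatives are not independent of each other. Dropping the sex term leaves each log2 difference as it was, because the sexes are balanced. Leaving out either male gives the log2 differences of the females alone. No paired analysis was possible because the labels carry no replicate numbers. With 3 libraries per label and 1 male in each, differences smaller than the reported intervals were not detectable.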
